A study of Sus scrofa with 21 samples.

Results

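The genes described here encode ADAM proteins of male germ cells, the chaperones of the endoplasmic reticulum that fold them, and a pair of proteins that act on them at the sperm surface. The 10 members were chosen by gene symbol, and 9 of them had a row among the 25880 genes of the count files. They were the ADAM genes ADAM18, ADAM20, ADAM30 and ADAM32, the chaperone genes CLGN, CALR3 and PDILT, and the surface protein genes TEX101 and ACE. The identifier that carries the symbol ADAM2, ENSSSCG00000045907, was not among the rows used, so ADAM2 was not analysed here.

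Testis RNA was sequenced from 13 Landrace and 8 Duroc boars of an artificial insemination station, with 1 library per boar and tissue taken at slaughter. The labels give no treatment and no age. Groups differed in the share of hyperactive sperm, cells with forceful and erratic tail beats, which was scored in ejaculates of the same boars. In contrast (i), Landrace boars L1 to L4 had low and L5 to L8 high hyperactivity on day 0, the day of ejaculation. In contrast (iii), L2, L9, L10 and L12 had a low and L7, L13 and L15 a high shift in hyperactivity from day 0 to the end of 96 h of storage, so L2 and L7 were in both Landrace contrasts. In contrast (ii), Duroc boars D1 to D5 were labelled high and D6, D7 and D9 low on day 0. The sample table published with the data numbers the Duroc boars differently, and sequencing depth placed every Duroc library nearest to an entry of the group its label gives. The boars, not pooled, are the replicates.

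Germ cells make ADAM proteins as precursors in the endoplasmic reticulum, where testis-specific chaperones fold them and pair them before they reach the sperm surface. Mature sperm ADAMs serve in migration through the oviduct and in binding to the zona pellucida, and in the mouse the loss of a chaperone leaves sperm without several of them. TEX101, a surface protein held by a glycosylphosphatidylinositol (GPI) anchor, accompanies ADAM proteins during maturation and is shed from sperm by the testis form of ACE, the angiotensin-converting enzyme. The annotation of Sscrofa11.1 in RefSeq, matched by symbol, places ADAM30 at chr4:101314710-101316974, CLGN at chr8:86621120-86674994, CALR3 at chr2:61105307-61136060, PDILT at chr3:25429591-25466922, TEX101 at chr6:50271730-50274745 and ACE at chr12:15394487-15414609. Counts were summed over the exons of each gene, so the germ cell and somatic transcripts of ACE cannot be told apart.

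The libraries held 41358671 to 125576407 reads counted on genes, with a median of 58530621. The lowest count of any member in any library was 1626, for ADAM30, and all 9 passed the filter on low counts in every comparison. Levels are given as CPM, read counts scaled to a common library size, after TMM normalization (trimmed mean of M-values) over all 21 libraries. They are not adjusted for gene length and are compared between boars, not between genes. In bulk tissue, fewer cells of a type and less RNA per cell cannot be told apart. The testis markers were present in all libraries, with summed elongating spermatid markers between 7821 and 17717 CPM. The Sertoli marker AMH was at 0 in every library. Of 6 epididymis markers listed, only 3 had rows, and their sum did not exceed 0.19 CPM. L13 stood apart from the other boars, with the lowest sum of elongating spermatid markers and the highest sum of Sertoli markers, 498 CPM.

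**Figure D1:**
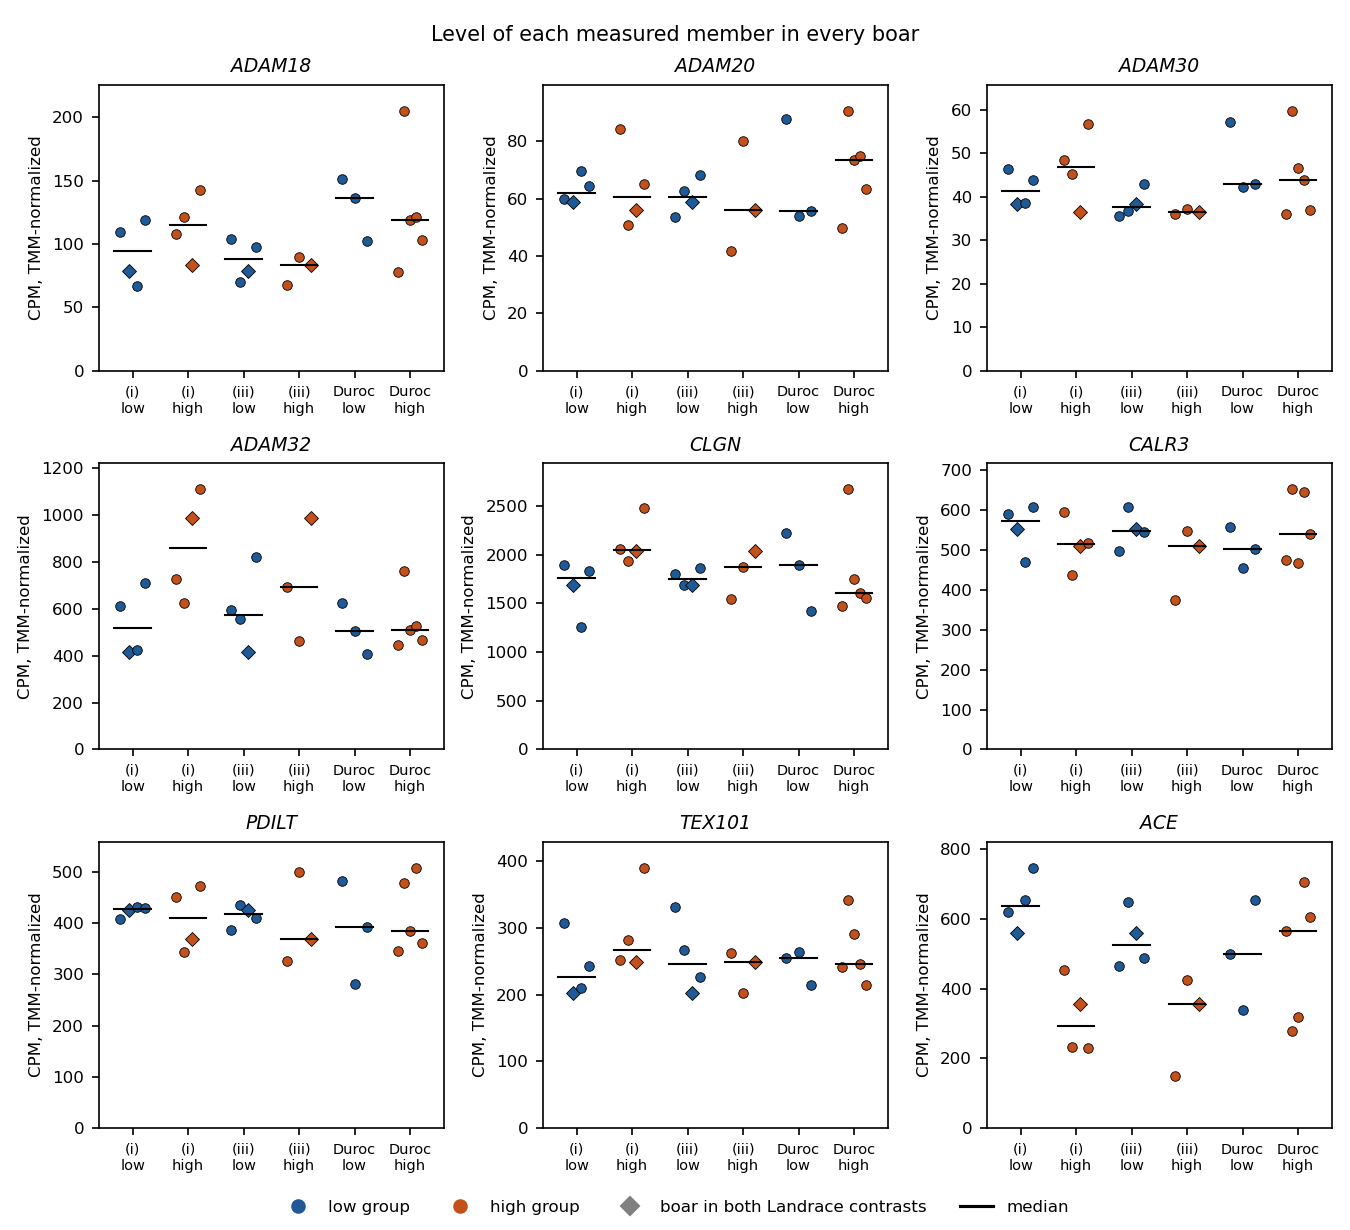
Level of each of the 9 measured genes (y axis, TMM-normalized CPM, starting at 0) in the low and high groups of contrasts (i), (iii) and (ii), the last labelled Duroc. Each point is 1 boar, horizontal lines are medians, and diamonds mark L2 and L7, which appear in both Landrace contrasts. ACE is lower in all 4 high boars than in all 4 low boars of contrast (i), whereas the groups of most other genes overlap.

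Contrast (i) asked which testis genes differ between Landrace boars with high and low hyperactivity at ejaculation. Of the 9 members, ADAM32 was higher and ACE lower in the high group by edgeR's quasi-likelihood test. The other 7 did not pass. The same test called 20.7% of all 12979 genes tested, 4.82% higher and 15.8% lower, so a count of 2 among 9 members is near the share of all genes. Without L3 or without L6, 1 gene was called in each fit, and without L1, L4 or L8 the counts were 966, 1481 and 1228, against 2682 with all boars. These 2682 comprised 626 higher and 2056 lower genes, against 104 and 2458 with scaling by library size only and 1639 and 2733 in DESeq2. The median log2 fold change, high over low, was 0.17 over the 9 members and 0.03 over all genes tested.

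Among the ADAM genes, ADAM32 encodes a testis-expressed ADAM of the sperm membrane. It was measured at 610.4, 417, 425 and 710.3 CPM in the low boars L1 to L4, and at 729, 625.3, 988 and 1110.1 CPM in the high boars L5 to L8. Of the high boars, 3 lay above every low boar, and L6 lay within the low range. The log2 fold change was 0.69 with a standard error (SE) of 0.22, and mean CPM was 1.60-fold higher in the high group (Benjamini-Hochberg adjusted p = 0.0471, edgeR's quasi-likelihood test). The exact 2-sided permutation test of mean log2 CPM gave p = 0.0571, where the smallest p that 4 boars against 4 allow is 0.0286. The adjusted p in edgeR's quasi-likelihood test ran from 0.0373 to 0.157 when each boar was left out in turn, and exceeded 0.05 without L1, L2, L3, L6, L7 or L8. The call was also lost with scaling by library size only (log2 fold change 0.53).

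ADAM18, a catalytically inactive ADAM of the sperm surface, had 109.6, 78.8, 66.6 and 119 CPM in L1 to L4 and 108, 121, 83.6 and 143 CPM in L5 to L8. L6 and L8 were above all low boars, and the other high boars were inside the low range. Its log2 fold change was 0.30 ± 0.20 (SE, n = 4 and 4 boars; adjusted p = 0.277, edgeR's quasi-likelihood test). ADAM20, a testis-specific ADAM with a protease active site, ranged from 58.6 to 69.5 CPM in the low and from 50.8 to 84.3 CPM among high boars. The high boars lay on both sides of the low range, and the log2 fold change was 0.04 ± 0.17 (SE). ADAM30, another ADAM of the testis, ranged from 38.4 to 46.3 CPM in the low and from 36.4 to 56.7 CPM among high boars, and differed by a log2 fold change of 0.17 ± 0.15 (SE). In its high group, 2 boars were above and 1 was below all low boars. ADAM20 is closely related to ADAM21, and reads with more than 1 alignment were given to no gene, so its level may leave out shared reads.

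Of the chaperone genes, CLGN encodes calmegin, a lectin-like chaperone that pairs ADAM precursors in the reticulum. Its level was 1896, 1688, 1257 and 1832 CPM in L1 to L4 and 2054, 1937, 2034 and 2484 CPM in L5 to L8. After TMM normalization the groups did not overlap. This was so for 8.04% of all genes with the high group above and for 28.2% in either direction. With scaling by library size only, the high boar L6 would lie below the low boar L1, so the separation depends on the normalization. CLGN differed by a log2 fold change of 0.36 ± 0.16 (SE), with a 95% interval from 0.05 to 0.68. CLGN did not pass in edgeR's quasi-likelihood test (adjusted p = 0.107). The exact permutation test gave p = 0.0286, the smallest it can give. With 4 boars against 4, every gene whose groups do not overlap gets this p, so it adds nothing to the separation. CALR3, a testis form of calreticulin, was measured at 469 to 607 CPM in the low and 438 to 594 CPM in the high group (log2 fold change -0.09 ± 0.14, SE). PDILT, a testis member of the protein disulfide isomerases, ranged from 409 to 432 CPM in the low and from 344 to 473 CPM in the high group (log2 fold change -0.03 ± 0.13, SE). For CALR3 and PDILT the groups overlapped, and the 95% intervals ran from -0.37 to 0.19 and from -0.29 to 0.22.

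The low boars kept PDILT within a narrow range, whereas in the high group L6 and L7 were below and L5 and L8 above all low boars. CALR3 in the high group was lowest in L6. Neither gene gave an adjusted p under 0.05 in any of the alternative fits of contrast (i).

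At the sperm surface, ACE showed the largest fold difference among the members. It was measured at 619, 561, 655 and 747 CPM in L1 to L4 and at 453, 232, 357 and 229 CPM in L5 to L8. Every high boar was below every low boar, a separation that 20.1% of all genes also had in this direction. Its log2 fold change was -0.996 ± 0.22 (SE), with mean CPM 2.03-fold higher in the low group (adjusted p = 0.0209, edgeR's quasi-likelihood test). The exact permutation test gave p = 0.0286, the smallest it can give. With any single boar left out, its log2 fold change stayed between -1.22 and -0.86. The adjusted p in edgeR's quasi-likelihood test then exceeded 0.05 without L3 (0.0504) and without L6 (0.0539).

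TEX101 was measured at 307, 202, 209.5 and 243 CPM in L1 to L4 and at 252, 282, 248 and 390 CPM in L5 to L8. Only L8 was above all low boars. The log2 fold change was 0.30 ± 0.17 (SE; adjusted p = 0.205, edgeR's quasi-likelihood test). Of TEX101 and ACE, the genes of the shed protein and its releasing enzyme, only ACE passed, so an opposite change of TEX101 was not shown. In contrast (iii) both log2 fold changes were negative, -0.11 for TEX101 and -0.79 for ACE, and neither passed.

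**Figure D2:**
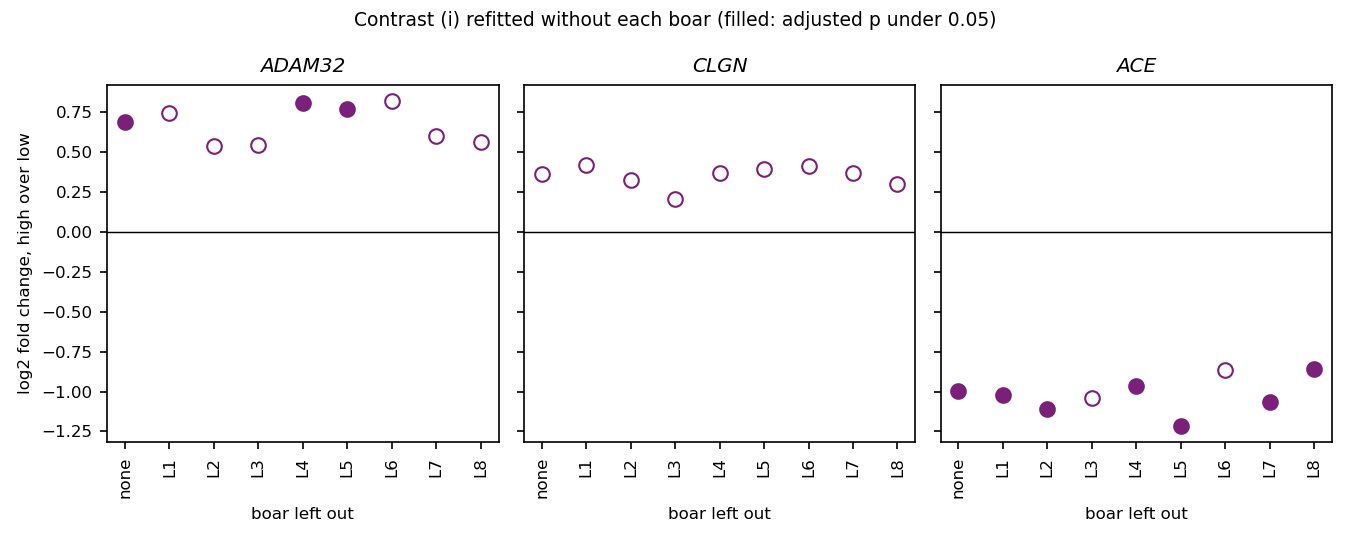
Log2 fold change, high over low, in contrast (i) for ADAM32, CLGN and ACE with all boars (none) and without each boar in turn. Filled points have an adjusted p under 0.05; ACE stays between -1.22 and -0.86 and loses the call without L3 or L6, and ADAM32 keeps it only without L4 or L5.

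Genes of other lists in the same comparison set the background for these values. Of 10 elongating spermatid markers, 3 fell and none rose with high hyperactivity in contrast (i). They were GAPDHS, the sperm form of a glycolytic enzyme, and TNP2 and PRM1, which pack sperm chromatin, with log2 fold changes of -0.90, -0.73 and -0.70 (adjusted p = 0.0209, 0.0324 and 0.0338 in edgeR's quasi-likelihood test). The list's median was -0.17, and its summed level overlapped between groups, at 13487 to 17717 CPM in the high and 11975 to 16816 CPM in the low group. Of 6 round spermatid markers, ACR, the acrosomal protease acrosin, was lower, at 77.2 to 126 against 196 to 229 CPM. Of 6 spermatogonia markers tested, ID4 was higher, and of 4 peritubular markers DES and MYH11 were lower. No marker of spermatocytes, Sertoli cells, Leydig cells, endothelium or macrophages passed. All 6 spermatocyte markers still had positive log2 fold changes, from 0.26 to 1.20, with a median of 0.46. The Leydig cell markers were also all positive, with a median of 0.34. Peritubular and endothelial markers were all negative, with medians of -1.08 and -0.29. The median was -0.16 for Sertoli cell and 0.14 for macrophage markers, against 0.03 over all genes tested. Endothelium carries the somatic form of ACE, and its 4 markers summed to 11.3 to 36.7 CPM in the high and 23.9 to 41.3 CPM in the low group. The part of these marker levels in the ACE and ADAM32 results was not tested.

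The other reproductive ADAM genes with rows were ADAM3A, ADAM7 and ADAM21, and none of the 3 passed in contrast (i). ADAM7, an ADAM best known from the epididymis, had a log2 fold change of 0.91 ± 0.32 (SE; adjusted p = 0.0616, edgeR's quasi-likelihood test), and ADAM3A, the counterpart of a mouse zona-binding ADAM, had 0.31 ± 0.19 (SE). None of 5 tested partners of ADAM maturation passed, LYPD4 and GALNTL5 having the smallest p, with log2 fold changes of 0.17 and 0.26. Of 10 further ADAM genes tested, ADAM19 and ADAM11 were lower, with log2 fold changes of -0.67 and -0.88. ADAM11 was at a low level, 1.57 to 4.03 CPM in the high and 5.15 to 6.23 CPM in the low group.

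Among 19 folding genes of the reticulum that all cells use, 1 was higher and 3 lower in the high group. ERO1A, an oxidase of the reticulum, was higher (log2 fold change 0.47), and the chaperone HYOU1 and the disulfide isomerases TXNDC5 and P4HB were lower (-0.77, -1.04 and -0.65). The median over the list was 0.20. Of 9 genes that build or remodel GPI anchors, such as that of TEX101, GPAA1, PGAP2 and PIGT were lower with high hyperactivity. Their log2 fold changes were -1.77, -0.59 and -0.74, and none of the 9 was higher, where 15.8% of all genes tested were lower. GPAA1 was near the filter on low counts, at 1.17 to 2.47 CPM in the high and 4.91 to 7.54 CPM in the low group. PIGT was at 5.06 to 8.91 against 10.9 to 14.8 CPM. A link of these genes to TEX101 was not tested. None of 10 peptidases and receptors of the angiotensin system passed. The smallest p among them belonged to ATP6AP2 and THOP1, with log2 fold changes of 0.45 and -0.64 (adjusted p = 0.0643 and 0.0717 in edgeR's quasi-likelihood test). The 16 genes of these lists named as higher or lower in contrast (i) were each no longer called without L3 or without L6. Of the 8 fits without 1 boar, ADAM11, ADAM19 and ID4 lost the call in 7, and P4HB, ERO1A and MYH11 in 6. The other named genes lost it in 2 to 5. Of 9 other alternatives, ADAM11, ADAM19 and ERO1A lost it in 3, and P4HB, PIGT and ID4 in 2.

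Contrast (iii) compared Landrace boars by the change in hyperactivity over storage. None of the 9 members passed, and edgeR's quasi-likelihood test called 0.0% of 12824 genes, with 2540 at an unadjusted p under 0.05, whereas the likelihood ratio test called 92 and DESeq2 178. ACE was measured at 561, 489, 464 and 650.1 CPM in the low boars L2, L9, L10 and L12 and at 357, 150.3 and 426 CPM in the high boars L7, L13 and L15. All high boars were below all low boars, as for 8.73% of all genes in this direction and 16.2% in either. The log2 fold change was -0.79 ± 0.29 (SE; adjusted p = 0.24, edgeR's quasi-likelihood test; exact permutation p = 0.0571). L13, the boar that stood apart in its markers, had the lowest ACE level of all 21 boars, and without it the log2 fold change was -0.45 (adjusted p = 0.606 in edgeR's quasi-likelihood test). L7 and L2 carried their values into both Landrace contrasts, and without both the log2 fold change of ACE was -0.91 in contrast (iii) and -1.16 in contrast (i). The share of counts on mitochondrially encoded genes also separated the groups of contrast (iii). It was 2.0% to 4.02% in the high and 1.1% to 1.97% in the low group, highest in L13. Beyond fits without these genes, the part of this share in the ACE values was not tested.

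The other 8 members overlapped between the groups of contrast (iii). ADAM32 had 417, 822, 595 and 556 CPM in L2, L9, L10 and L12 and 988, 694 and 463 CPM in L7, L13 and L15. Its log2 fold change was 0.26 ± 0.27 (SE), and -0.06 without L7. CLGN had 1688, 1859, 1802 and 1694 CPM in the low boars and 2034, 1546 and 1872 CPM in the high boars, with 2 high boars above and 1 below the low range (log2 fold change 0.05 ± 0.14, SE). CALR3 had a log2 fold change of -0.20 ± 0.15 (SE) and was lowest in L13, at 376 CPM. For ADAM18, ADAM20, ADAM30, PDILT and TEX101 the log2 fold changes lay between -0.13 and -0.03. None of the other gene lists held a gene that passed. In this contrast the summed elongating spermatid markers were 7821 to 14365 CPM in the high and 13807 to 16985 CPM in the low group. All 10 of these markers had negative log2 fold changes, from -1.05 to -0.16. Their median was -0.53, against 0.003 over all genes tested. The part of these markers in the ACE values was not tested.

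**Figure D3:**
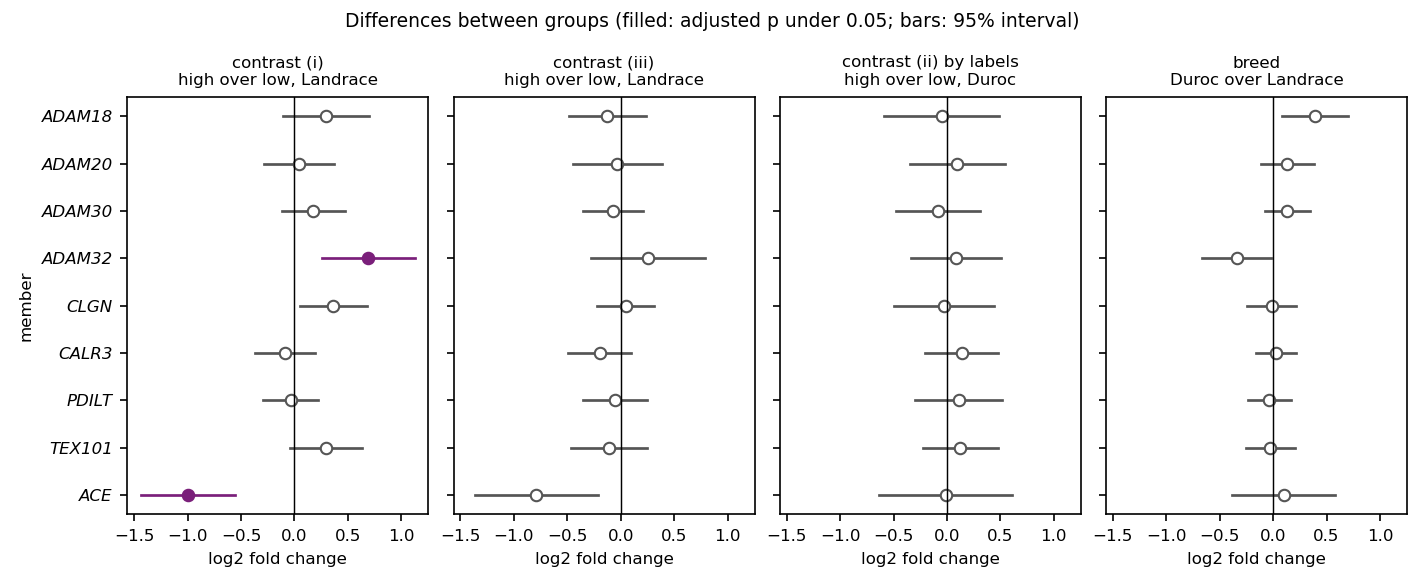
Log2 fold change (x axis) of each of the 9 genes (y axis) in contrasts (i), (iii) and (ii), high over low, and between breeds, Duroc over Landrace. Bars are 95% intervals and filled points have an adjusted p under 0.05, which are ADAM32 and ACE in contrast (i) alone.

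Contrast (ii) compared the Duroc boars by their labels. No member passed in edgeR's quasi-likelihood test, which called 0.0% of 13043 genes, with 158 at an unadjusted p under 0.05, and neither the likelihood ratio test nor DESeq2 called any. All 9 members overlapped between groups, where 1.41% of all genes did not. ACE was measured at 565, 280.0, 318, 706 and 605 CPM in D1 to D5, labelled high, and at 501, 340 and 656 CPM in D6, D7 and D9, labelled low. Both groups held boars near the bottom and near the top of the Duroc range. For ACE the log2 fold change was -0.01 ± 0.32 (SE), with a 95% interval from -0.64 to 0.61. ADAM32 ranged from 446 to 760.0 CPM in the labelled high and from 406 to 624 CPM in the labelled low group, a log2 fold change of 0.08 ± 0.22 (SE). Fold changes of the other members, on the log2 scale, lay between -0.09 and 0.14.

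The effect of group in Duroc, by labels, was set against that of contrast (i) in a single fit. For ACE the Duroc effect minus the Landrace effect was 0.97 ± 0.43 (SE; adjusted p = 0.329, edgeR's quasi-likelihood test). For ADAM32 it was -0.64 ± 0.32 (SE; adjusted p = 0.329, edgeR's quasi-likelihood test). No member passed the adjustment, and 0.0% of 12920 genes did, with 1946 at an unadjusted p under 0.05, 2 called by the likelihood ratio test and 11 by DESeq2. The effects were therefore not shown to differ between the breeds.

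Between the breeds, no member passed in edgeR's quasi-likelihood test, which called 2.77% of 12835 genes, and all 9 members overlapped, where 0.28% of all genes did not. ADAM18 ranged from 66.6 CPM in L3 to 143 CPM in L8 among 13 Landrace boars, with a median of 97.6, and from 78.2 CPM in D1 to 205 CPM in D2 among 8 Duroc boars, with a median of 120.2. D2 and D6 were above all Landrace boars. The log2 fold change, Duroc over Landrace, was 0.39 ± 0.16 (SE; adjusted p = 0.252, edgeR's quasi-likelihood test; permutation p = 0.0411 over 100000 resamples), and 0.27 without D2. ADAM32 had a median of 625.3 CPM in Landrace, from 417 in L2 to 1110.1 in L8, and of 506 CPM in Duroc, from 406 in D9 to 760.0 in D2. Its log2 fold change was -0.34 ± 0.16 (SE; adjusted p = 0.403, edgeR's quasi-likelihood test; permutation p = 0.0844).

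For the chaperone genes, the intervals of the difference held 0. CLGN differed by a log2 fold change of -0.02 ± 0.12 (SE), CALR3 by 0.03 ± 0.09 and PDILT by -0.04 ± 0.10, with 95% intervals from -0.25 to 0.22, from -0.16 to 0.21 and from -0.23 to 0.16. ADAM20 and ADAM30 each differed by 0.13, TEX101 by -0.03 and ACE by 0.10 ± 0.24 (SE). The lists of other ADAM genes, maturation partners, reticulum folding, GPI anchors and the angiotensin system held no gene that passed between breeds. Of the cell type markers, GATA4 of Sertoli cells and the spermatocyte marker NME8 were higher in Duroc (log2 fold changes 0.74 and 0.67), and the round spermatid marker CATSPER3 and the spermatogonia marker KIT were lower (-0.59 and -1.40). The call of NME8 was lost in 16 of the 21 fits without 1 boar, with log2 fold changes from 0.51 to 0.77. It was also lost in 4 of 9 other alternatives, and that of GATA4 in 1.

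**Figure D4:**
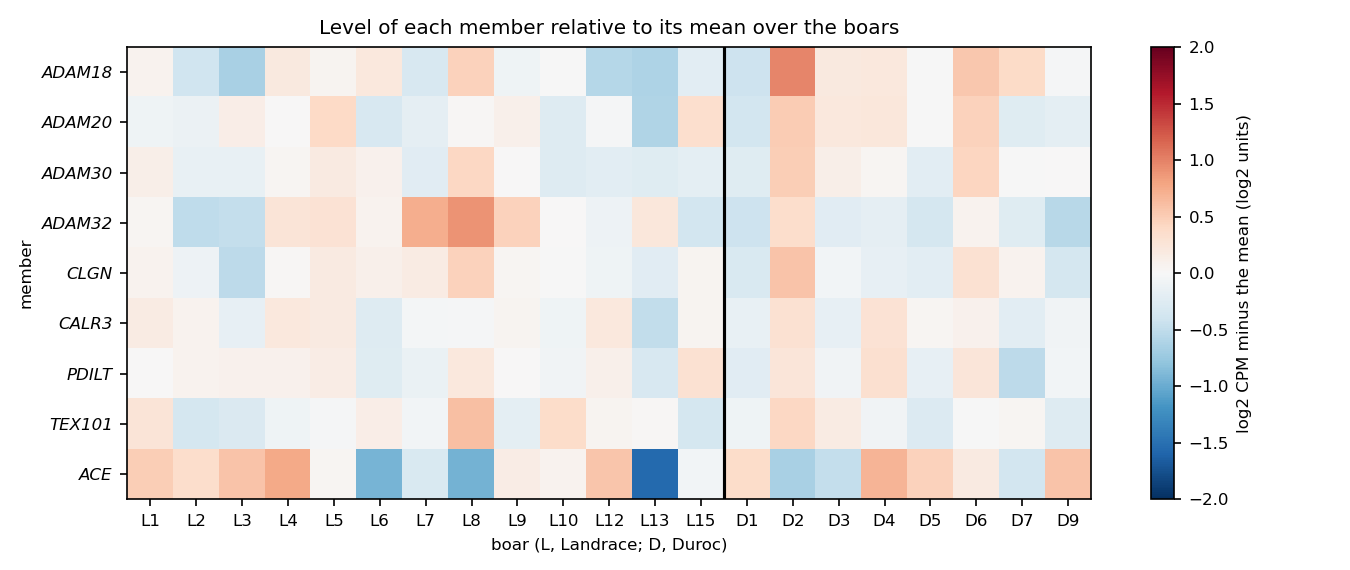
Log2 CPM of each of the 9 genes (rows) minus its mean over the 21 boars (columns, Landrace left and Duroc right of the line), in log2 units. ACE has the widest range, with the lowest value in L13. After TMM normalization D2 holds the highest values of ADAM18, ADAM20, ADAM30, CLGN and CALR3, of which those of ADAM20, ADAM30 and CALR3 depend on this scaling.

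Over all 21 boars the members differed in how much they varied. The standard deviation of log2 CPM had a median of 0.34 over 12835 tested genes, with quartiles at 0.25 and 0.51. ACE had the largest among the members, 0.63, more than 84.9% of tested genes. Its highest level, in L4, was 4.97-fold its lowest, in L13. ADAM18 and ADAM32 followed with 0.41 and 0.40, and their highest levels were 3.08-fold and 2.74-fold their lowest. CALR3 and PDILT varied least. CALR3 had a standard deviation of 0.20, a value that 10.4% of tested genes were below, and PDILT had 0.22, and their highest levels were 1.74-fold and 1.81-fold their lowest. ADAM30, TEX101, CLGN and ADAM20 lay between, at 0.23, 0.25, 0.26 and 0.29.

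Single boars recurred at the ends of these ranges. In TMM-normalized CPM, D2 was highest of all boars for ADAM18, ADAM20, ADAM30, CLGN and CALR3, and L8 for ADAM32 and TEX101. L8 and D2 had the lowest TMM scaling factors, 0.85 and 0.86, which raises all their CPM. With scaling by library size only, D6 would lie above D2 for ADAM20 and ADAM30, and D4 for CALR3. L7 would then lie above L8 for ADAM32, and L10 for TEX101. ACE was not high in these boars, being at 280.0 CPM in D2 and 229 CPM in L8, both below its median of 489 CPM. L8 and D2 also had the highest summed spermatocyte markers, at 2914 and 2807 CPM, and L8 had the lowest summed Leydig cell markers, 593 CPM. The part of these marker levels in the members' values was not tested. L13 was lowest for ADAM20, CALR3 and ACE.

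Likeness of pattern was measured as the root mean square difference of centred log2 CPM over the 21 libraries, which the genes share. This measure grows with the spread of each gene, so that genes that vary little come out near each other and a gene that varies widely comes out far from all others. The smallest value among members was that of the chaperone genes CALR3 and PDILT, at 0.15, which also had the smallest standard deviations. ADAM20 was nearest to PDILT, at 0.18, and ADAM30 and CLGN were nearest to each other, at 0.18. ADAM18 was nearest to ADAM30, at 0.24, and ADAM32 and TEX101 were nearest to CLGN, at 0.28 and 0.21. In no case was a member the nearest of all genes. Among all tested genes ranked by this measure, CLGN was 315th for ADAM32 and 874th for TEX101, ADAM30 was 58th for ADAM18 and 879th for CLGN, and CLGN was 336th for ADAM30. PDILT was 14th for ADAM20 and 45th for CALR3, and CALR3 was 22nd for PDILT. ACE, the member with the largest standard deviation, was at 0.52 from CALR3, the 3033rd gene in its order, and at 0.87 from ADAM32.

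Among all tested genes with a symbol, the nearest to CLGN were CDADC1, GOPC and CDKL3, at 0.08, 0.08 and 0.09. The nearest to TEX101 were C5orf34, ALKBH1 and BBS5, between 0.11 and 0.13. The nearest to ACE were SGSM2, GAPDHS and GTPBP2, at 0.11, 0.13 and 0.13. GAPDHS, the elongating spermatid marker named above, had 83.4 to 156 CPM in the high and 198 to 247 CPM in the low boars of contrast (i), and 61.4 to 136 against 143 to 230.0 CPM in contrast (iii). These genes were picked for their likeness over the same libraries, so that their group differences add no separate support to those of CLGN, TEX101 and ACE.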

How the data were processed

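The authors sequenced stranded libraries of testis RNA as 100 bp single reads, trimmed them with Trimmomatic 0.36, aligned them with STAR to Sscrofa11.1 and counted them per Ensembl gene with HTSeq in its reverse stranded mode. The deposited values are raw read counts, 1 file per boar, without normalization. Reads given to no gene (29.42% to 38.99% of a file) were left out of library sizes. Differences between files of 1 breed exceeded sampling noise for every pair (chi-square per degree of freedom 42.7 or more), so no library was counted as a duplicate.

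Genes were tested where 50% or more of the libraries of a comparison reached 1 CPM, in R 4.3.3 with edgeR 4.0.16, by the quasi-likelihood test after TMM normalization, with Benjamini-Hochberg adjustment over all genes tested and a threshold of 0.05. Each contrast was fitted on its own boars. SE is the size of the log2 fold change over the square root of its quasi-likelihood F statistic, and 95% intervals are 1.96 SE on each side. The fits were tested on simulated data. Single members were also compared by two-sided permutation tests of log2 CPM (prior count 2). Symbols came from an identifier table that named 14857 genes. Groups follow the labels. Matched by name, 7 of the 8 Duroc boars have the opposite group in the published sample table, which numbers them differently. Reads per file were 1.025 to 1.041 times the depth in that table over the Landrace boars. By this ratio each of 7 Duroc files met a single entry, of the group of its label. D9 lay just outside the range, and its nearest entry was also of its group, so that the 8 files had 8 different nearest entries.

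All members were named in every comparison. From the other lists, up to 3 genes that passed in each direction, or up to 2 with the smallest p, were named, and for CLGN, TEX101 and ACE the 3 nearest genes. Members and lists were chosen with earlier results of these data known. Alternatives tried were DESeq2 1.42.0, a likelihood ratio test, relative log expression (RLE) or library size scaling, no filter or filterByExpr in place of the filter on low counts, a fit made robust to outlying genes, leaving out the 13 mitochondrially encoded genes, the shared boars or each boar in turn, and, between breeds, only the Landrace boars of contrast (i).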

Additional observations from a re-analysis of the deposited data

Results flagged for a closer look

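In the labelled high group of Duroc, boar D2 lay far from the other 4 boars for a pair of members, by Dixon's criterion. Its ADAM32 level was 759.97 CPM against 446 to 527 CPM in the others, and its CLGN level was 2672.53 CPM against 1469.6 to 1746 CPM. The criterion was met in 2 of the 45 groups examined, where chance at 1 in 20 would give 2.25. Without D2, the log2 fold change of ADAM32 in contrast (ii) went from 0.08 to -0.07.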

How the results depend on the processing

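Of 927 values of the members refitted over all comparisons and alternatives, 861 kept their direction and side of the threshold, 56 changed sign, none of these with an adjusted p under 0.05 (edgeR's quasi-likelihood test or the alternative test), and 10 lost a call, all for ADAM32 or ACE in contrast (i). For ACE, log2 fold changes ran from -1.22 to -0.86 with each boar left out. For ADAM32 they ran from 0.54 to 0.82, and were 0.53 with scaling by library size only and 0.47 without both shared boars, where the call was lost. Scaling by library size only moved the median of all genes in contrast (i) from 0.03 to -0.12, near its value for ADAM20, -0.12, and in the fit of the difference between breeds from -0.01 to 0.16. PDILT in contrast (i) turned to 0.062 in DESeq2, 0.031 without a filter and 0.0088 with filterByExpr, and without both shared boars contrast (iii) gave -0.21 for ADAM32 and -0.082 for CLGN. The difference between breeds for ADAM20 turned to -0.070 in DESeq2, -0.0023 with RLE and -0.036 without a filter. The causes were not tested.

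The counts of genes called changed as follows. DESeq2 called 4372 in contrast (i), against 2682 in edgeR's quasi-likelihood test, and 178 in contrast (iii), 804 between breeds, against 355, and 11 in the difference. In contrast (iii), where edgeR's quasi-likelihood test called 0, the likelihood ratio test called 92, and 1 gene was called without a filter and 1 with filterByExpr. In the difference the likelihood ratio test called 2. Between breeds 554 genes were called without a filter, and 204 with only the Landrace boars of contrast (i). With each boar left out, 1 to 3764 genes were called in contrast (i), 0 to 2 in contrasts (iii) and (ii), and 0 to 1 in the difference.

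Log2 fold changes that had not passed also changed sign with boars left out. In contrast (i) these were ADAM20 (-0.11 to 0.15) and PDILT (-0.093 to 0.048). In contrast (iii) they were ADAM18 (-0.22 to 0.0043), ADAM20 (-0.31 to 0.19), ADAM32 (-0.059 to 0.49), CLGN (-0.049 to 0.17), PDILT (-0.25 to 0.091) and TEX101 (-0.20 to 0.052). In contrast (ii) they were ADAM18 (-0.30 to 0.076), ADAM20 (-0.026 to 0.36), ADAM30 (-0.22 to 0.071), ADAM32 (-0.069 to 0.25), CLGN (-0.21 to 0.13), PDILT (-0.072 to 0.31) and ACE (-0.22 to 0.24). Between breeds they were CLGN (-0.11 to 0.031), CALR3 (-0.016 to 0.057), PDILT (-0.089 to 0.026) and TEX101 (-0.090 to 0.035), and in the difference ADAM20 (-0.10 to 0.29) and TEX101 (-0.30 to 0.0089).

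The groups of contrasts (i) to (iii) held 3 to 5 boars, which limits the precision. Every member had at least 1626 counts in every library. The labels name no sequencing batch. No paired analysis was possible because each boar gave 1 library and no label pairs boars across groups.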

Other observations

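ADAM7 was singled out after its values were seen. Its level in L12, 0.69 CPM, was far below that of every other boar, where the lowest was 17.1 CPM. In contrast (iii), to which L12 belongs as a low boar, its log2 fold change was 0.80 with an SE of 0.82.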
